A study of Mus musculus with 16 samples.

Results

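The genes described here are 31 genes of cholesterol synthesis, uptake and efflux, chosen by name from a list of sterol synthesis, SREBP, LXR and cholesterol transport genes, among 36528 genes counted in mouse retina. All 31 were found in the count tables by their Entrez identifiers, and all 31 passed the filter on low counts. RNA of whole retina was sequenced 3 days after the optic nerve was crushed, which damages the axons of the ganglion cells, in mice given GNE-3511 or vehicle. GNE-3511 is an inhibitor of DLK, dual leucine zipper kinase, which relays axon injury to the neuron's nucleus, and was dosed at 75 mg/kg at 60 and 68 h after the injury. The groups, named by eye and drug, were crushed DLKi with 5 libraries, crushed vehicle with 3, uncrushed DLKi with 5 and uncrushed vehicle with 3. The sources used here do not give strain, age or sex of the mice, and the inhibitor was first given after the crush. The labels state 5 mice per drug but tie no retina to a mouse. By that number, the 5 crushed and 5 uncrushed DLKi retinas would be both eyes of the same 5 mice, and vehicle retinas may share mice too. The tests treat every retina as independent, so the p-values rest on the spread among these retinas and ignore any pairing of eyes.

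Cells make cholesterol from acetyl-CoA through the mevalonate pathway to squalene, and from squalene through lanosterol and a series of sterol intermediates. When sterols run low, SCAP carries the SREBP transcription factors to the Golgi for release, and INSIG proteins hold them back in the endoplasmic reticulum when sterols are plentiful. When oxysterols accumulate, the nuclear receptors LXR alpha and beta raise the expression of exporters such as ABCA1 and ABCG1 and of MYLIP, which marks lipoprotein receptors for degradation. In the retina, photoreceptors, Müller glia and pigment epithelium all take part in sterol traffic, and in bulk RNA fewer cells of a type and less RNA per cell cannot be told apart.

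The upstream sequences of the 3 genes that passed a test in a planned comparison are shown because the values below turn on these genes. They are the 250 bases before the start in RefSeq (GRCm38.p6), written 5′ to 3′ on the gene's strand, at chr4:53159896-53160145 (minus strand) for Abca1, chr5:28071162-28071411 (plus strand) for Insig1 and chrX:72918271-72918520 (plus strand) for Nsdhl. Capitals mark the letters CACGTG, a palindromic E-box, and CCAAT, an NF-Y box, which is written ATTGG where it lies on the other strand.
Abca1: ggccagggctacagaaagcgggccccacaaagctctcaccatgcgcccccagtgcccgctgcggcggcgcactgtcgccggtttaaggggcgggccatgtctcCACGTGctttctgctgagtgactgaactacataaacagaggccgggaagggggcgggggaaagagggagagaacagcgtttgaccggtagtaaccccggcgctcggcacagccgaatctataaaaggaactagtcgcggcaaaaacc
Insig1: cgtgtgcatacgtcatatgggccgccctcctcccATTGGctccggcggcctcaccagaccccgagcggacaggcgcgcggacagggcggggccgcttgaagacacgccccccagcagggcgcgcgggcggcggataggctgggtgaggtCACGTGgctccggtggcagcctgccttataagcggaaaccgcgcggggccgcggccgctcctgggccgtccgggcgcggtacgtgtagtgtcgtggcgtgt
Nsdhl: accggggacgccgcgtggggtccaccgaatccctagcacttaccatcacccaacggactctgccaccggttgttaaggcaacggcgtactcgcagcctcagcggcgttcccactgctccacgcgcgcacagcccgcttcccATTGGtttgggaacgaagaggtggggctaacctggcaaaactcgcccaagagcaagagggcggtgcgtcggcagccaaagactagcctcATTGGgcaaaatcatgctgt
The E-box began 147 bases before the start in Abca1 and 101 bases before it in Insig1. The CCAAT box began 216 bases before the start in Insig1, and 109 and 20 bases before it in Nsdhl. These distances are from the RefSeq starts used, and other starts would change them. GENCODE M21 places the start of Nsdhl further downstream, at 72918557, and that of Insig1 further upstream, at 28071363, inside the printed bases. The RefSeq gene of Abca1 reaches 53159988, so part of its printed bases lies inside that gene. On both strands of windows running from 250 bases before the start to 50 after it, CACGTG was found in 7.15% of 32851 mouse promoters and in 7 of the 34 promoters of the list, which belong to 25 genes. CCAAT was found in 37.41% of all promoters and in 20 of the 34. A core of the sterol regulatory element, TCACNCCAC, was in 1.24% of all promoters and in 1 of the 34, that of Hmgcs1, and CACCCCAC was in 2.87% and in 2 of the 34, those of Acat2 and Hmgcs1, with the 2 matches in Hmgcs1 overlapping. These matches of letters are a description and do not show that a factor binds. No other letters were searched for, so sites of other factors, LXR among them, are not marked.

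The deposited counts summed to 22.4 to 44.7 M per library. Levels are given as nRPKM, the authors' RPKM scaled by library, and log2 changes come from the counts with edgeR's quasi-likelihood test, in which a gene was called at a Benjamini-Hochberg adjusted p of 0.05 or less over 19391 genes. Uncrushed vehicle 1 and crushed vehicle 3 were the shallowest libraries, at 22.4 and 25.4 M counts, and were the lowest of their groups in 16 and 13 of the 18 synthesis genes. Uncrushed vehicle 1 also held the highest share of mitochondrial counts, 4.54%, and uncrushed DLKi 5 was the lowest of its group in 11 of the 18 synthesis genes. Rhodopsin, the visual pigment of rods, took 3.08% to 4.29% of the counts, as a check of the labelled tissue.

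Averaged over the 16 libraries, the members spanned 0.459 nRPKM for Idi1 to 489 nRPKM for Apoe, and 16 of the 31 were at 10 nRPKM or more. The fold between the highest and lowest library was 1.17 to 2.51, with a median of 1.51, and only Abca1 exceeded 2. The smallest count of a member in a library was 27 for Idi1 and 91 for any of the other 30.

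Abca1, the exporter that loads cholesterol onto apolipoproteins, was lower in inhibitor-treated than in vehicle retinas in both eyes. In crushed DLKi retinas it had 3.11, 3.05, 2.98, 3.35 and 3.60 nRPKM, against 6.01, 4.97 and 5.11 nRPKM in crushed vehicle retinas. In uncrushed DLKi retinas it had 2.52, 2.72, 2.40, 2.49 and 3.12 nRPKM, against 5.06, 4.91 and 5.08 nRPKM in uncrushed vehicle retinas. In both eyes every DLKi library was below every vehicle library. The log2 change with the inhibitor was -0.74 ± 0.085 (SE; 95% interval -0.92 to -0.56, adjusted p = 0.00068 in edgeR) in crushed retinas, 0.60 times the vehicle level. In uncrushed retinas it was -0.92 ± 0.085 (95% interval -1.10 to -0.75, adjusted p = 7.39e-05), 0.527 times the vehicle level. Abca1 was also higher in crushed than uncrushed DLKi retinas, by 0.28 ± 0.075 (adjusted p = 0.0324), at 3.22 ± 0.255 against 2.65 ± 0.289 nRPKM (SD, n = 5 each). Leaving out any of crushed DLKi 1, 4 or 5, uncrushed DLKi 1, 2, 3 or 4, or uncrushed vehicle 2 ended that call, with adjusted p up to 0.111. With vehicle its crush effect was 0.10 ± 0.096 (95% interval -0.11 to 0.30, adjusted p = 0.903), and the difference of the crush effects was 0.19 ± 0.122 (95% interval -0.07 to 0.44, adjusted p = 1). No exon of Abca1 overlaps another gene in the GENCODE annotation of this build, and none of its 50-base stretches occurs in another gene's transcripts.

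Across the list, edgeR called Abca1 alone lower with the inhibitor in each eye and called no member higher. Among all tested genes 0.129% were called higher and 0.376% lower in crushed retinas, and 0.263% higher and 0.366% lower in uncrushed retinas. At an unadjusted p under 0.05 there were 9 of the 31 members in crushed and 8 in uncrushed retinas, all of them lower. Over all genes the shares at that level, in either direction, were 13.7% and 17.3%. Members whose DLKi and vehicle libraries did not overlap were Dhcr7, Insig1, Mylip and Abca1 in crushed retinas and Cyp51, Msmo1, Sc5d, Mylip and Abca1 in uncrushed retinas. All 9 of these cases were lower in DLKi, 4 and 5 of 31 members, beside 4.87% and 4.31% of all genes with every library lower and 4.68% and 5.24% with every library higher. The 2 inhibitor comparisons use separate libraries. By the stated number of mice the DLKi retinas of both eyes would come from the same animals, so the 2 are not independent.

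**Figure D1:**
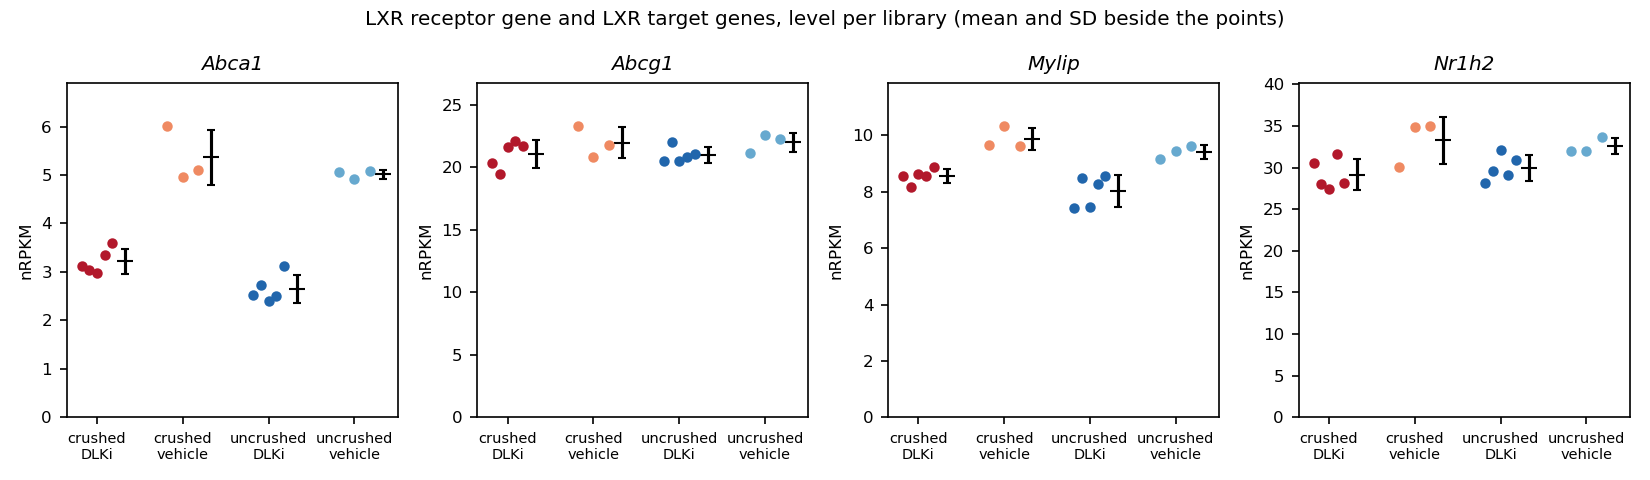
Level in nRPKM (vertical axes, from 0) of Abca1, Abcg1, Mylip and Nr1h2 in each of the 16 libraries, by group, with the mean and SD as a bar beside the points. Abca1 libraries with the inhibitor sit between 2.40 and 3.60 nRPKM and those with vehicle between 4.91 and 6.01 nRPKM, while the groups of Abcg1 overlap.

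The other efflux genes were called in no planned comparison by edgeR. Abcg1, an exporter that passes cholesterol to lipoprotein particles, had 20.3, 19.5, 21.6, 22.1 and 21.7 nRPKM in crushed DLKi retinas, against 23.3, 20.8 and 21.8 nRPKM in crushed vehicle retinas. In uncrushed DLKi retinas it had 20.5, 22.0, 20.5, 20.8 and 21.0 nRPKM, against 21.1, 22.6 and 22.3 nRPKM in uncrushed vehicle retinas. The groups overlapped in both eyes, and the inhibitor effect was -0.06 (95% interval -0.18 to 0.06) in crushed and -0.07 (95% interval -0.19 to 0.05) in uncrushed retinas. Apoe, the main lipoprotein carrier made by glia, varied more between libraries than any other member but Abca1, at 355 to 641 nRPKM in crushed DLKi retinas and 360 to 628 nRPKM in crushed vehicle retinas. In uncrushed retinas it had 360 to 706 nRPKM with DLKi and 483 to 588 nRPKM with vehicle. Its inhibitor effect was -0.07 in both eyes, with a 95% interval of -0.52 to 0.37 in crushed retinas.

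Mylip, the ubiquitin ligase that LXR uses to remove lipoprotein receptors, was below the vehicle libraries in every DLKi library in both eyes but missed edgeR's threshold in both. It had 8.56, 8.19, 8.62, 8.56 and 8.90 nRPKM in crushed DLKi retinas, against 9.66, 10.33 and 9.61 nRPKM in crushed vehicle retinas. It had 7.42, 8.49, 7.45, 8.29 and 8.56 nRPKM in uncrushed DLKi retinas, against 9.16, 9.46 and 9.63 nRPKM in uncrushed vehicle retinas. The log2 changes were -0.21 ± 0.060 (adjusted p = 0.146 in edgeR) in crushed and -0.23 ± 0.060 (adjusted p = 0.0917) in uncrushed retinas. In uncrushed retinas DESeq2 (adjusted p = 0.0218) and voom (adjusted p = 0.0141) called Mylip lower, and the other 24 of 26 settings did not. Nr1h2, which encodes LXR beta, had 30.6, 28.0, 27.4, 31.6 and 28.2 nRPKM in crushed DLKi retinas, against 30.0, 34.8 and 35.0 nRPKM in crushed vehicle retinas. It had 28.1, 29.6, 32.1, 29.1 and 30.9 nRPKM in uncrushed DLKi retinas, against 32.0, 32.0 and 33.7 nRPKM in uncrushed vehicle retinas. The groups overlapped in both eyes, and the changes of -0.19 (adjusted p = 0.218) and -0.12 (adjusted p = 0.358) were not called by edgeR. Nr1h3, which encodes LXR alpha, was the lower of the 2 receptor genes, at 1.77 ± 0.251 nRPKM in crushed DLKi and 1.71 ± 0.0887 nRPKM in crushed vehicle retinas (SD, n = 5 and 3), and was called in no comparison by edgeR.

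All 8 ganglion cell markers had estimates above 0 with the inhibitor in both eyes, with a median of 0.25 in crushed and 0.27 in uncrushed retinas, and edgeR called 1 of them, Pou4f1, higher in crushed retinas (adjusted p = 0.0108) and 0 in uncrushed retinas. Their summed level, as mean log2 CPM about the mean of all libraries, ranged from -0.38 to -0.08 in crushed DLKi and from -1.05 to -0.37 in crushed vehicle libraries. In uncrushed retinas it ranged from 0.28 to 0.71 with DLKi and from -0.11 to 0.46 with vehicle. The part of these markers in the inhibitor effects was not tested. The summed level of 7 Müller glia markers ranged from -0.07 to 0.17 in crushed DLKi and from -0.12 to 0.22 in crushed vehicle libraries. With the inhibitor, 3 of the 7 had estimates below 0 in crushed and 2 in uncrushed retinas, and edgeR called 0 of them. The summed level of 8 microglia and macrophage markers ranged from -0.05 to 0.90 in crushed DLKi and from 0.37 to 0.57 in crushed vehicle libraries. In uncrushed retinas it ranged from -0.741 to -0.197 with DLKi and from -0.375 to -0.306 with vehicle. With the inhibitor, 4 of the 8 had estimates below 0 in crushed retinas (median -0.014). In uncrushed retinas all 8 did (median -0.226), and edgeR called 0 in either eye. The summed level of 5 pigment epithelium markers ranged from -0.43 to 0.21 in crushed DLKi and from 0.12 to 0.37 in crushed vehicle libraries. It ranged from -1.09 to 0.68 in uncrushed DLKi and from -0.75 to 1.52 in uncrushed vehicle libraries. All 5 had estimates below 0 with the inhibitor in both eyes (medians -0.47 in crushed and -0.792 in uncrushed retinas), and edgeR called 0 of them. The part of these 3 cell types in the inhibitor effects was not tested either.

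Among the 4 regulators, Insig1 was called lower with crush under the inhibitor by edgeR and the others were not called by it in a planned comparison. Insig1, which retains SCAP and the SREBPs in the endoplasmic reticulum and is itself raised by SREBP, had 14.4, 15.2, 15.0, 16.2 and 15.8 nRPKM in crushed DLKi retinas, against 23.0, 21.2, 20.8, 19.3 and 18.6 nRPKM in uncrushed DLKi retinas. In crushed vehicle retinas it had 19.2, 20.3 and 16.2 nRPKM, against 20.1, 26.6 and 25.2 nRPKM in uncrushed vehicle retinas. With the inhibitor every crushed library was below every uncrushed one, while with vehicle crushed vehicle 2, at 20.3, stood above uncrushed vehicle 1, at 20.1. The crush effect was -0.42 ± 0.079 (adjusted p = 0.00275 in edgeR) with the inhibitor and -0.37 ± 0.102 (adjusted p = 0.0683) with vehicle. The difference of the crush effects was -0.05 ± 0.129 (95% interval -0.33 to 0.22, adjusted p = 1). In the average over both drugs, a test added after the data were seen, Insig1 was lower, at -0.40 ± 0.065 (adjusted p = 0.000481). Without uncrushed vehicle 1 and crushed vehicle 3, the 2 shallowest libraries, the crush effect with vehicle was -0.39 (adjusted p = 0.0331 in edgeR). Of 26 settings, the main one included, 5 called the crush effect of Insig1 with vehicle and 21 did not. The inhibitor effect on Insig1 was -0.28 ± 0.091 (adjusted p = 0.195) in crushed and -0.22 ± 0.090 (adjusted p = 0.224) in uncrushed retinas, and in crushed retinas every DLKi library was below every vehicle library. Voom called the inhibitor effect on Insig1 in uncrushed retinas (adjusted p = 0.0179), and the other 25 of 26 settings did not.

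Srebf1, which encodes SREBP-1 and is also a target of LXR, had 43.7, 36.9, 37.7, 36.5 and 41.3 nRPKM in crushed DLKi retinas, against 35.1, 32.0, 33.8, 34.7 and 32.8 nRPKM in uncrushed DLKi retinas. In crushed vehicle retinas it had 37.5, 41.7 and 39.9 nRPKM, against 31.9, 35.4 and 38.8 nRPKM in uncrushed vehicle retinas. Every crushed DLKi library was above every uncrushed DLKi library, and the vehicle groups overlapped. The crush effects were 0.22 ± 0.065 (adjusted p = 0.0553 in edgeR) with the inhibitor and 0.17 ± 0.083 (adjusted p = 0.52) with vehicle, and in the average over both drugs Srebf1 was higher, at 0.20 ± 0.053 (adjusted p = 0.0254). DESeq2 (adjusted p = 0.0188) and voom (adjusted p = 0.0374) called Srebf1 higher with crush under the inhibitor. Of 26 settings, 9 called that effect and 17 did not. Leaving out crushed vehicle 2 or 3 or uncrushed vehicle 1 or 2 ended the call in the average, with adjusted p up to 0.0738. Srebf2, which encodes SREBP-2, the factor that drives the synthesis genes, had crush effects of -0.11 (95% interval -0.29 to 0.07) with the inhibitor and -0.03 (95% interval -0.27 to 0.21) with vehicle. Scap, the escort of the SREBPs, had crush effects of 0.02 (95% interval -0.07 to 0.12) with the inhibitor and 0.09 (95% interval -0.03 to 0.21) with vehicle, and every crushed vehicle library was above the uncrushed vehicle ones.

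**Figure D2:**
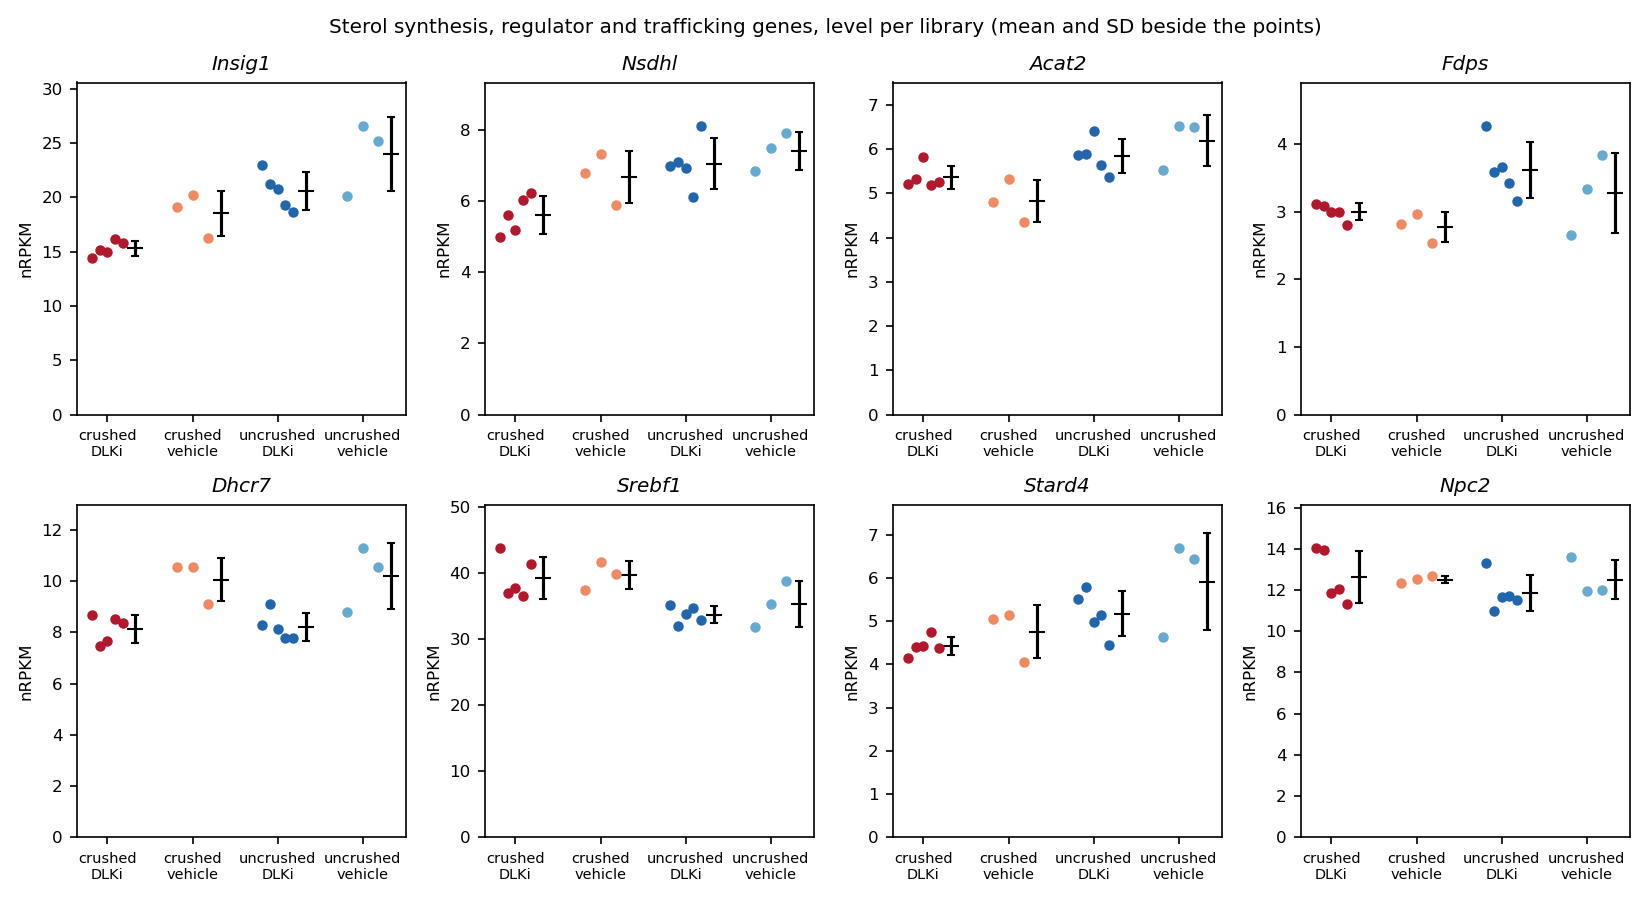
Level in nRPKM (vertical axes, from 0) of 8 synthesis, regulator and trafficking genes in each library, by group, with the mean and SD as a bar beside the points. Insig1 libraries of crushed DLKi retinas lie between 14.4 and 16.2 nRPKM, below the 18.6 to 23.0 nRPKM of uncrushed DLKi retinas, and the Dhcr7 points with the inhibitor lie low in both eyes.

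Of the 18 synthesis genes, 15 had a crush effect below 0 with the inhibitor (median -0.08) and 14 with vehicle (median -0.14), beside medians of -0.001 and -0.003 over all genes tested. EdgeR called Nsdhl alone among them, with the inhibitor. Nsdhl, the decarboxylating sterol dehydrogenase of the late pathway, had 5.00, 5.62, 5.19, 6.03 and 6.22 nRPKM in crushed DLKi retinas, against 6.98, 7.10, 6.94, 6.11 and 8.11 nRPKM in uncrushed DLKi retinas. In crushed vehicle retinas it had 6.79, 7.32 and 5.89 nRPKM, against 6.85, 7.48 and 7.91 nRPKM in uncrushed vehicle retinas. Crushed and uncrushed libraries overlapped with either drug. The crush effect was -0.32 ± 0.085 (adjusted p = 0.0296 in edgeR) with the inhibitor and -0.15 ± 0.110 (95% interval -0.38 to 0.08, adjusted p = 0.798) with vehicle. The call with the inhibitor ended when crushed DLKi 1, 2 or 3 or uncrushed DLKi 1, 2, 3 or 5 was left out, with adjusted p up to 0.0958.

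In the early pathway, Acat2, which condenses acetyl-CoA, had 5.22, 5.32, 5.82, 5.18 and 5.26 nRPKM in crushed DLKi retinas, against 5.88, 5.90, 6.41, 5.65 and 5.38 nRPKM in uncrushed DLKi retinas. With vehicle it had 4.81, 5.32 and 4.36 nRPKM in crushed retinas, against 5.52, 6.53 and 6.51 nRPKM in uncrushed retinas. Every crushed vehicle library was below the uncrushed vehicle ones, and the DLKi groups overlapped. The crush effect was -0.12 ± 0.073 (adjusted p = 0.529) with the inhibitor and -0.36 ± 0.095 (adjusted p = 0.0564 in edgeR) with vehicle, and -0.24 ± 0.060 (adjusted p = 0.0151) in the average over both drugs. Without crushed vehicle 3, uncrushed vehicle 2 or uncrushed vehicle 3 the call in the average ended, with adjusted p up to 0.0551. Acat2 shares 39.1% of its 50-base stretches with Acat3 and Tcp1, so its counts are uncertain.

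Fdps, which makes farnesyl diphosphate, had 3.12, 3.08, 3.00, 3.00 and 2.80 nRPKM in crushed DLKi retinas, against 4.27, 3.58, 3.67, 3.43 and 3.16 nRPKM in uncrushed DLKi retinas. With vehicle it had 2.82, 2.97 and 2.54 nRPKM in crushed retinas, against 2.66, 3.34 and 3.84 nRPKM in uncrushed vehicle retinas. The DLKi groups did not overlap and the vehicle groups did, and the crush effects of -0.27 (adjusted p = 0.191) and -0.25 (adjusted p = 0.627) were not called by edgeR. The other early genes were not called by edgeR with either drug, and voom called Hmgcs1 lower with the inhibitor (adjusted p = 0.0435). That effect of Hmgcs1 was not called in 24 of 26 settings. Crush effects with the inhibitor and with vehicle were -0.26 and -0.27 for Hmgcs1, which makes HMG-CoA, -0.16 and -0.12 for Mvd, which decarboxylates mevalonate diphosphate, and -0.04 and -0.17 for Mvk, the mevalonate kinase. Pmvk, the phosphomevalonate kinase, was at 0.20 with both drugs, and Idi1, the isomerase of isopentenyl diphosphate, at -0.03 and 0.08. Fdps and Idi1 share 26.2% and 25.3% of their 50-base stretches with other genes.

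In the late pathway, Dhcr7, whose enzyme makes cholesterol from its last precursor in one branch, had larger estimates for the inhibitor than for crush, and edgeR called none of them. It had 8.67, 7.47, 7.65, 8.52 and 8.36 nRPKM in crushed DLKi retinas, against 10.53, 10.53 and 9.10 nRPKM in crushed vehicle retinas. It had 8.28, 9.12, 8.12, 7.79 and 7.76 nRPKM in uncrushed DLKi retinas, against 8.78, 11.28 and 10.54 nRPKM in uncrushed vehicle retinas. The groups did not overlap in crushed retinas and overlapped in uncrushed retinas through uncrushed vehicle 1. The inhibitor effects were -0.31 ± 0.084 (adjusted p = 0.117 in edgeR) and -0.32 ± 0.083 (adjusted p = 0.0952), while the crush effects were -0.01 (95% interval -0.17 to 0.14) with the inhibitor and -0.02 (95% interval -0.22 to 0.18) with vehicle. DESeq2 called the inhibitor effect in both eyes, with adjusted p of 0.0372 in crushed and 0.0222 in uncrushed retinas, and voom called it in uncrushed retinas (adjusted p = 0.0035). DESeq2 called 1.35% and 1.9% of all genes lower there, and voom called 2.93% lower in uncrushed retinas. In 25 of 26 settings for crushed and 24 of 26 for uncrushed retinas Dhcr7 was not called.

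Inhibitor effects of the 18 synthesis genes were below 0 for 14 in crushed retinas (median -0.14) and for 14 in uncrushed retinas (median -0.11). Over all genes tested the medians were 0.008 and 0.007, with lower quartiles of -0.127 and -0.144. EdgeR called none of the 18. At the same threshold DESeq2 called Dhcr7 lower in both eyes, and voom called Dhcr7, Cyp51, Msmo1 and Hsd17b7 lower in uncrushed retinas, where it called 2.93% of all genes lower. In crushed retinas Msmo1, the sterol methyl oxidase, was at -0.24 and Cyp51, the lanosterol demethylase, at -0.20. In uncrushed retinas Msmo1 was at -0.23, Cyp51 at -0.24 and Hsd17b7, a sterol ketone reductase, at -0.32, with adjusted p of 0.158, 0.175 and 0.137. Sqle, the squalene epoxidase, was at -0.20 and -0.14, Lss, the lanosterol synthase, at -0.03 and -0.13, and Sc5d, a sterol desaturase, at -0.14 and -0.19 in crushed and uncrushed retinas. The crush effects of Fdft1, the squalene synthase, were -0.23 with the inhibitor and -0.09 with vehicle, and those of Tm7sf2, a sterol reductase, were -0.29 and -0.27. EdgeR called none of these. For crush with the inhibitor, voom called Fdft1 (adjusted p = 0.021) and Msmo1 (adjusted p = 0.0134) lower, beside 3.6% of all genes. The average crush effect of Msmo1 over both drugs was -0.193. The estimates of Ebp, the sterol isomerase, were above 0 with crush, at 0.19 with the inhibitor and 0.22 with vehicle (adjusted p = 0.255 and 0.445). Fdft1 shares 26.5% of its 50-base stretches with other genes, Ctsb on the opposite strand among them, and the library kit does not mark strand.

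No trafficking gene was called by edgeR in a planned comparison. Stard4, which carries cholesterol between membranes, had 4.15, 4.39, 4.43, 4.76 and 4.38 nRPKM in crushed DLKi retinas, against 5.50, 5.79, 4.97, 5.14 and 4.44 nRPKM in uncrushed DLKi retinas. The vehicle libraries had 5.05, 5.15 and 4.05 nRPKM in crushed retinas, against 4.63, 6.68 and 6.42 nRPKM in uncrushed vehicle retinas. Both pairs of groups overlapped, the crush effects were -0.22 (adjusted p = 0.266 in edgeR) and -0.32 (adjusted p = 0.286), and the average over both drugs was -0.27 ± 0.078 (adjusted p = 0.0379), a call that ended without any of 11 single libraries. Voom called Stard4 lower with crush under vehicle (adjusted p = 0.0207) and with the inhibitor in uncrushed retinas (adjusted p = 0.0325). These 2 effects were not called in 24 and 25 of 26 settings. Npc2, the lysosomal sterol carrier, had 14.0, 14.0, 11.9, 12.1 and 11.3 nRPKM in crushed DLKi retinas, against 13.3, 10.99, 11.7, 11.7 and 11.5 nRPKM in uncrushed DLKi retinas. In crushed vehicle retinas it had 12.3, 12.5 and 12.7 nRPKM, against 13.6, 11.9 and 12.01 nRPKM in uncrushed vehicle retinas. The groups overlapped, and the crush effect of Npc2 was 0.10 (95% interval -0.05 to 0.25) with the inhibitor and 0.00 (95% interval -0.19 to 0.20) with vehicle. Npc1, its membrane partner, had crush effects of 0.09 (95% interval -0.05 to 0.23) with the inhibitor and 0.07 (95% interval -0.12 to 0.25) with vehicle.

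Over the 31 genes, 1 was called higher (Abca1) and 2 lower (Insig1, Nsdhl) in crushed against uncrushed retinas with the inhibitor, where 3.29% of all genes were called higher and 2.04% lower. With vehicle, edgeR called 0 of the 31, where 1.77% of all genes were called higher and 0.861% lower. At an unadjusted p under 0.05 there were 12 of the 31 with the inhibitor, 8 of them lower, beside 14.4% of all genes. There were 5 with vehicle, 4 of them lower, beside 10.4%. With vehicle, DESeq2 called Acat2 and Insig1 lower, beside 1.08% of all genes it tested. Voom called Acat2, Insig1 and Stard4 lower with vehicle, beside 1.54%. The average over both drugs called 1 higher, Srebf1, and 5 lower, Insig1, Acat2, Msmo1, Nsdhl and Stard4, where 5.22% of all genes were called higher and 3.23% lower. Insig1 was called in the average under all 24 alternatives, while the calls of Msmo1 and Nsdhl ended under 10 and 14 of them. Members with every library lower were Fdps, Fdft1, Tm7sf2 and Insig1 with the inhibitor, beside 3.3% of all genes, and Srebf1 was the only one with every library higher, beside 3.4%. With vehicle, Acat2, Lss and Msmo1 had every library lower, beside 4.75%, and Pmvk, Ebp and Scap every library higher, beside 8.13%. The difference of the crush effects called 0 members in edgeR, in DESeq2 and in voom, and 0 had an unadjusted p under 0.05, where 0% of all genes were called higher and 0.0103% lower. The crush effects of the 2 drugs come from separate libraries, and 28 of the 31 members had the same sign in both. The share over all genes was not computed and members are not replicates, so this count is a description.

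**Figure D3:**
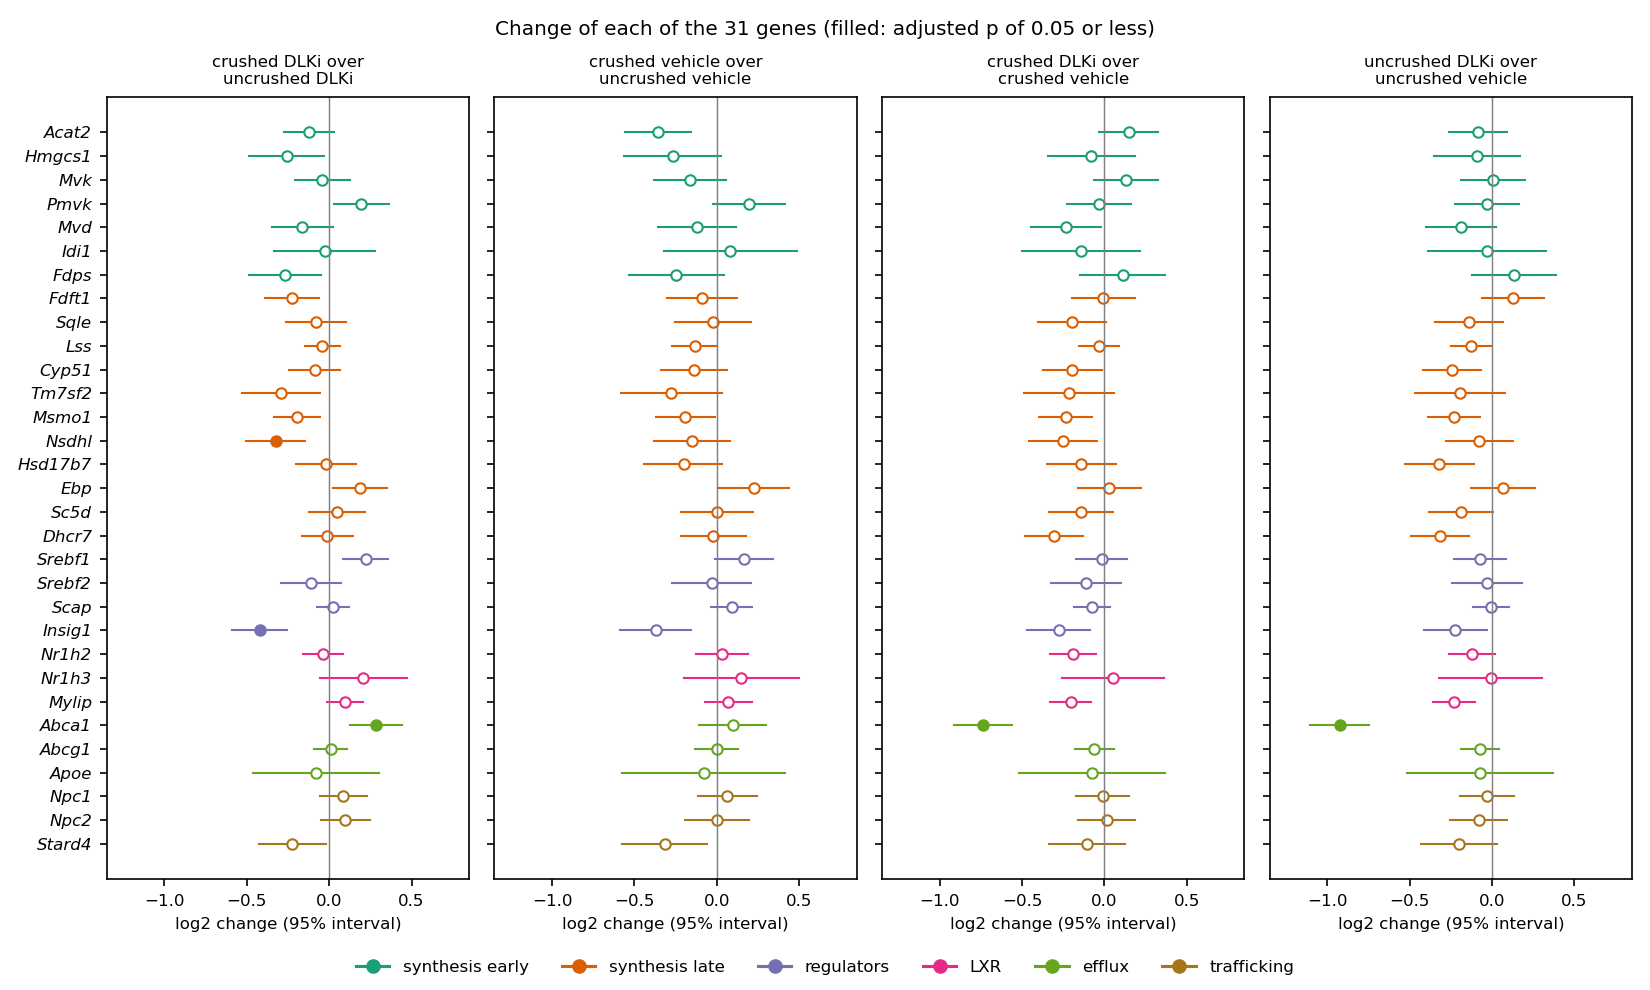
Log2 change of each of the 31 genes with its 95% interval (horizontal axes) in 4 comparisons, coloured by role, with filled points for an adjusted p of 0.05 or less. Abca1 is the only filled point in both inhibitor panels, and Insig1, Nsdhl and Abca1 are filled for crush with the inhibitor.

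**Figure D4:**
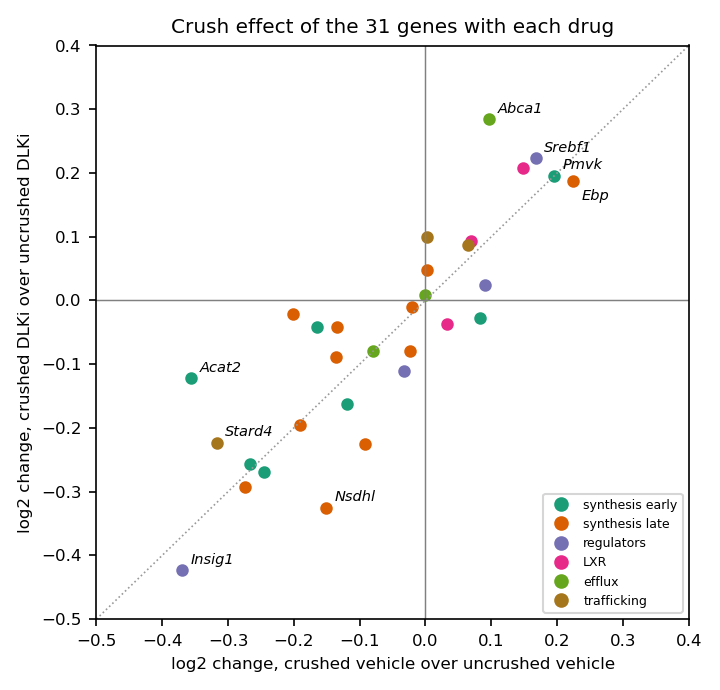
Crush effect with the inhibitor (vertical axis) against that with vehicle (horizontal axis) for the 31 genes, as log2 changes, with points coloured by role and a dotted line of equality. Insig1 lies lowest, at -0.42 with the inhibitor and -0.37 with vehicle, and Abca1 lies above the line.

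**Figure D5:**
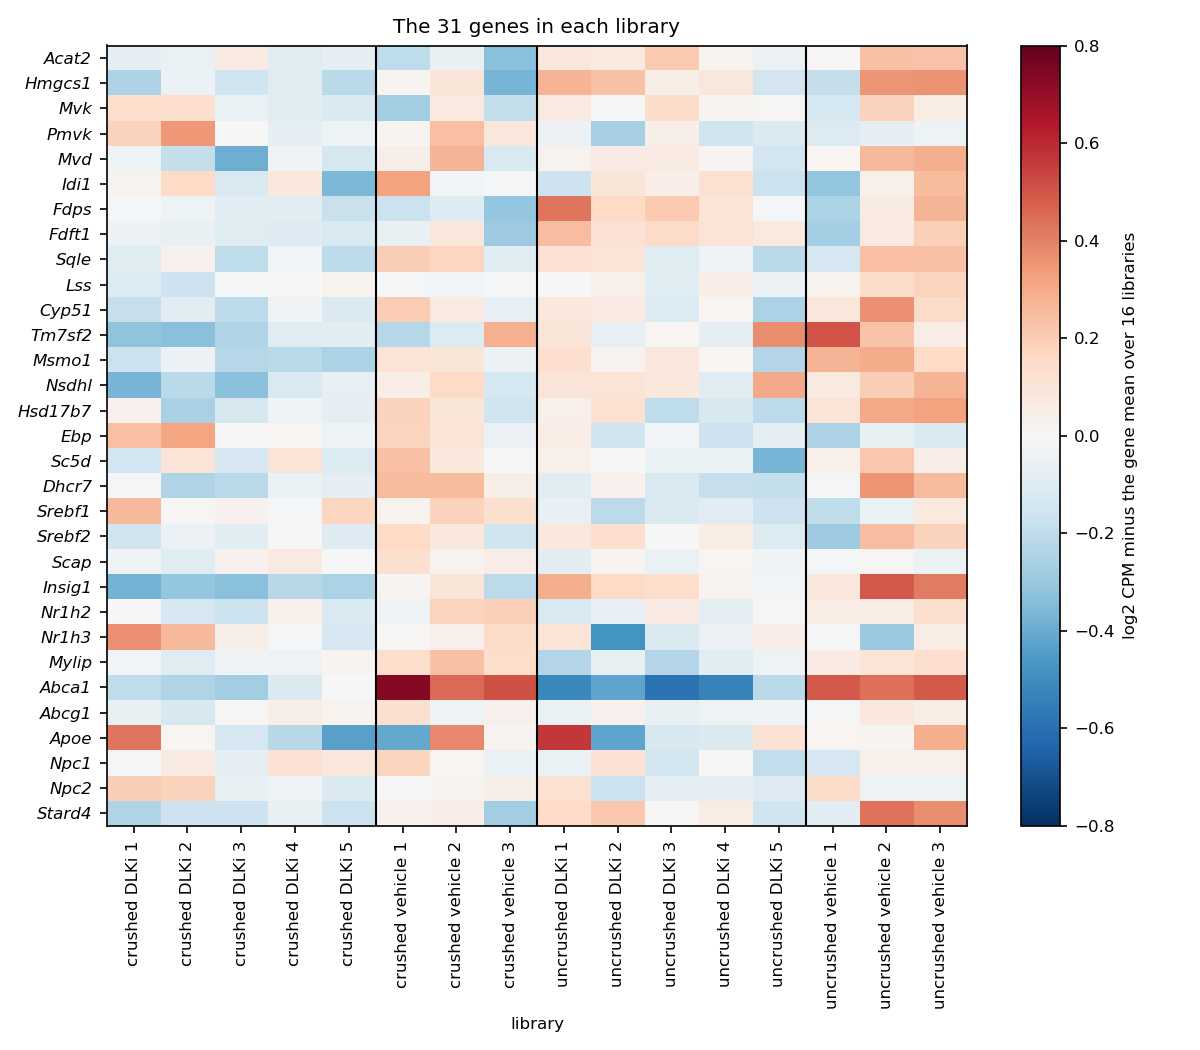
Log2 CPM of each of the 31 genes in each library minus the mean of that gene over the 16 libraries, as colour, with libraries grouped by eye and drug. The Abca1 row is positive in all 6 vehicle libraries, and the Insig1 row is negative in all 5 crushed DLKi libraries.

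Microglia and ganglion cell markers moved with crush in the same libraries, as did 1 astrocyte marker and 1 Müller glia marker. With the inhibitor, 7 of 8 microglia and macrophage markers were called higher and 6 of 8 ganglion cell markers lower, and with vehicle 3 of 8 and 6 of 8. The summed level of the microglia markers was -0.05 to 0.90 in crushed DLKi and -0.74 to -0.20 in uncrushed DLKi libraries. That of the ganglion cell markers was -0.38 to -0.08 in crushed DLKi and 0.28 to 0.71 in uncrushed DLKi libraries. Of 3 astrocyte markers, 1, Gfap, was called higher with crush with both drugs (adjusted p = 0.000101 with the inhibitor and 0.00126 with vehicle), and the medians of the 3 were 0.56 and 0.49. Their summed level overlapped between crushed DLKi libraries, at -0.207 to 0.965, and uncrushed DLKi libraries, at -0.489 to -0.07. Of 7 Müller glia markers, 1, Vim, was called higher with both drugs (adjusted p = 0.000808 and 0.00643). Of 4 lens markers, 3 were called lower with crush under the inhibitor. The part of these cell types in the crush effects of Insig1, Nsdhl and Abca1 was not tested.

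Other genes of the pathway came from lists of sterol enzymes and regulators, transport, LXR and lipogenic targets, and oxysterol and ester genes. Some genes of these lists, called ones among them, were taken out after results were seen, so the counts below are over the rest. Of 11 tested synthesis and regulation genes reported here, 0 were called by edgeR in any of the 5 planned comparisons. At an unadjusted p under 0.05 there were 4 for the inhibitor in crushed retinas, 1 for the inhibitor in uncrushed retinas and 1 for crush with vehicle, beside 13.7%, 17.3% and 10.4% of all genes. There were 0 for crush with the inhibitor and for the difference of the crush effects, beside 14.4% and 1.54%. The smallest adjusted p among them in a planned comparison was 0.164, for Mbtps1, a protease that cleaves the SREBPs, at -0.17 ± 0.057 for the inhibitor in uncrushed retinas, and its inhibitor effect in crushed retinas was -0.18 ± 0.057 (adjusted p = 0.185). Idi2 was not tested.

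Among 14 transport genes reported here, 3 were called higher in crushed against uncrushed DLKi retinas, beside 3.29% of all genes. They were the apolipoproteins Apod (0.83, adjusted p = 0.0264) and Clu (0.52, adjusted p = 0.00946), and Lcat, which esterifies cholesterol on lipoproteins (0.50, adjusted p = 0.0491). Lcat was also called higher with crush in vehicle retinas (0.89 ± 0.185, adjusted p = 0.0122), where 1.77% of all genes were. Scarb1, the receptor for high density lipoprotein, was the single one of these 14 called in an inhibitor comparison. It was called lower in uncrushed retinas, where 0.366% of all genes were. It averaged 31.7 ± 1.54 nRPKM in uncrushed DLKi and 39.0 ± 2.39 nRPKM in uncrushed vehicle retinas (SD, n = 5 and 3), a change of -0.30 ± 0.062 (adjusted p = 0.0347 in edgeR), and in crushed retinas the inhibitor effect was -0.27 ± 0.062 (adjusted p = 0.0621). Of 11 LXR partner and lipogenic genes, Rxrg, a partner receptor, was called lower with crush with both drugs (-0.60, adjusted p = 0.00341, and -0.80, adjusted p = 0.00551). Of 16 tested oxysterol and ester genes, Cyp46a1, the neuronal cholesterol hydroxylase, was called lower in crushed against uncrushed DLKi retinas (-0.32, adjusted p = 0.0252). Among all genes, 2.04% were called lower with crush under the inhibitor and 0.861% with vehicle. Soat2 was not tested.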

How the data were processed

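Poly(A) RNA of 16 mouse retinas was sequenced, per the labels' protocols, as single reads of 50 bases. Per the file headers, the deposited counts give the uniquely aligned reads per gene model. The aligner GSNAP and the build GRCm38 come from the submitters' processing notes, and the sources used here give neither its version nor the annotation release. The authors' deposited nRPKM is, per the file headers, an RPKM scaled by a size factor per library, and was used for levels only. Entrez identifiers were matched to RefSeq symbols of GRCm38.p6, which also gave the promoters; 31049 of 36528 matched. Total counts were 22.4 to 44.7 M per library.

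Under R 4.3.3, edgeR 4.0.16 (two-sided quasi-likelihood F test after TMM scaling and filterByExpr) was applied to the counts in 1 fit of 4 groups with no covariate, with 12 residual and 5.27 prior degrees of freedom, and adjusted by Benjamini-Hochberg over 19391 genes. SE and 95% intervals are of the log2 change. The method was tested on simulated data. Alternatives were other scalings and filters, DESeq2 1.42.0, limma 3.58.1 voom with quality weights, fits of the compared groups only, leaving out each library, and leaving out the 2 shallowest together; the average crush effect was added after seeing the data. Values per library are printed for called members and the 2 of smallest p in each role class; the other members are given by changes or ranges, and called genes of the other lists are named. The members and lists were chosen with earlier results of these data known. Some genes of the other lists are not reported here; they were taken out after results were seen, called genes among them, so counts over those lists are over the rest. Exon overlap and shared 50-base stretches were read from GENCODE M21. Where reads are shared between genes, unique alignment lowers the counts.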

Additional observations from a re-analysis of the deposited data

Results flagged for a closer look

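In 3 of 62 groups of 5 libraries 1 library stood apart from the other 4, by a gap above 0.71 of the group's range, and chance gives about 1 in 20. Acat2 had 5.82 nRPKM in crushed DLKi 3, against 5.18 to 5.32 nRPKM in the other crushed DLKi libraries. Mvd had 6.79 nRPKM in uncrushed DLKi 5, against 7.62 to 7.93 nRPKM in the others of its group. Sc5d had 9.41 nRPKM in uncrushed DLKi 5, against 11.7 to 12.4 nRPKM in the others. Groups of 3 libraries were not examined in this way.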

How the results depend on the processing

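No change of a called gene reversed its sign under the alternatives run, and genes not called were not examined in this way. The median over the members for crush with vehicle, -0.032, ranged from -0.136 to 0.002. That for the difference of the crush effects, 0.01, ranged from -0.018 to 0.056, so both medians crossed 0. The inhibitor effects on Abca1 stayed called under all 25 alternatives, at -0.79 to -0.64 (adjusted p up to 0.0108) in crushed and -0.999 to -0.891 (adjusted p up to 0.00278) in uncrushed retinas, and so did the crush effect of Insig1 with the inhibitor, at -0.45 to -0.38 (adjusted p up to 0.011). Scaling by library total ended the call of Nsdhl (adjusted p = 0.0516).

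For crush with the inhibitor, members called higher numbered 2, against 1, with library totals, upper quartile scaling, DESeq2, voom, only the compared groups, or without uncrushed vehicle 1 and crushed vehicle 3. Among all genes, these settings called from 3.35% (only the compared groups) to 4.05% (voom) higher, against 3.29%. Those called lower numbered 1, against 2, with library totals, and 5 with voom or without that pair. Library totals called 1.73% and voom 3.6% of all genes lower, against 2.04%, and the fit without that pair called 651 of 19638 genes lower. For crush with vehicle, members called lower numbered 2, against 0, with upper quartile scaling or DESeq2, 3 with voom, and 1 with a mean of at least 1 CPM or without that pair. Of all genes, upper quartile scaling called 0.928%, DESeq2 1.08%, voom 1.54% and the filter at 1 CPM 0.958% lower, against 0.861%. The fit without that pair called 181 of 19638 genes lower. For the inhibitor in crushed retinas, members called lower numbered 2, against 1, with DESeq2, which called 1.35% of all genes lower, against 0.376%. In uncrushed retinas they numbered 3 with DESeq2 and 8 with voom, against 1. There DESeq2 called 1.9% and voom 2.93% of all genes lower, against 0.366%. In the average crush effect, members called higher numbered 3, against 1, with library totals, 2 with upper quartile scaling, DESeq2 or voom, and 0 without that pair. Library totals called 6.01%, upper quartile scaling 5.6%, DESeq2 4.97% and voom 6.16% of all genes higher, against 5.22%. The fit without that pair called 921 of 19638 genes higher. Those called lower numbered 2, against 5, with library totals, 3 with no filter and 9 with voom. These called 2.67%, 1.94% and 5.06% of all genes lower, against 3.23%. The causes were not tested.

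Leaving out 1 library gave 0 to 2 members higher and 1 to 3 lower for crush with the inhibitor, 0 to 3 lower for crush with vehicle, 1 to 1 lower for the inhibitor in either eye, and 0 to 2 higher and 1 to 7 lower in the average crush effect. Without uncrushed vehicle 1 the count of 3 for crush with vehicle was reached, where 1.31% of all genes were called lower, against 0.861%.

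No paired analysis was run because no label ties a retina to a mouse, and replicate numbers only follow the order of the records. Library numbers in the titles alternate between crushed and uncrushed retinas within a drug, but no label says that they mark mice. What a pairing of eyes would change was not tested. With 3 vehicle libraries a group, changes under about the size of the intervals given could not be called.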
